A study of Mus musculus with 6 samples.

Results

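Translation initiation factors are the proteins that bring the small ribosomal subunit, the initiator tRNA and a messenger RNA together at a start codon. They were taken as every probe whose gene symbol begins with Eif and a digit from 1 to 6, leaving out the eIF4E-binding proteins, which gave 90 of the 31692 probes in the deposited table, or 51 of its 16361 named genes. The RNA came from spleens of NOD females, whose strain becomes diabetic through autoimmunity without induction. The mice were 6 weeks old when treatment began and were given either MOTS-c at 0.5 mg/kg/day into the peritoneum, a small peptide that the mitochondrial genome encodes, or a scrambled form of that peptide as vehicle. Both groups were sampled at 18 weeks of age after 16 to 18 h without food. Each group had 3 one-colour Agilent arrays, called here vehicle 1 to 3 and MOTS-c 1 to 3, and MOTS-c against vehicle is the only comparison they allow. The labels do not say whether the arrays of a group hold separate mice, so a p-value measures the spread between these samples, which may be technical.

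In the cell, eIF2 carries the initiator tRNA to the ribosome and is recharged with GTP by eIF2B. Of the kinases that phosphorylate eIF2 and so slow initiation, Eif2ak1 (HRI) responds to lack of haem and is known for its abundance in red cell precursors, Eif2ak2 (PKR) to double-stranded RNA, Eif2ak3 (PERK) to unfolded protein in the endoplasmic reticulum and Eif2ak4 (GCN2) to uncharged tRNA. The eIF3 complex is the large scaffold on the small subunit. The eIF4 factors bind the mRNA cap (eIF4E), unwind the mRNA (eIF4A) and bridge it to the ribosome (eIF4G). The spleen of a mouse holds lymphocytes, macrophages and, in its red pulp, dividing red cell precursors.

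Values are normalized log2 signals, and a difference is MOTS-c minus vehicle on that scale with the standard error of limma's fit over all 31692 probes. With Benjamini-Hochberg adjustment over all probes, 0 probes of the table (0%) and 0 of the 90 initiation factor probes had an adjusted p under 0.05, the smallest adjusted p being 0.0820 in the table and 0.0828 among these probes. At an unadjusted p under 0.05, 19 of the 90 probes were lower with MOTS-c, against 13.7% of all probes, and 8 were higher, against 12.2%. At an adjusted p under 0.1, 5 of the 90 were lower (background 5.17% of probes) and 1 higher (background 1.33%). No initiation factor is therefore called changed here, and the values below are measured differences that missed that threshold. With 3 arrays against 3, an exact permutation test of 1 gene cannot go below a p of 0.1.

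Some arrays stood apart from the rest. Vehicle 1 was low for lymphocyte transcripts: its mean deviation from the 6-array mean was -1.46 over 15 T cell markers and -1.36 over 13 B cell markers, the other vehicle arrays lying between -0.18 and 0.22. Vehicle 3 was high for digestive enzyme transcripts of the exocrine pancreas, with a mean deviation of 4.05 over 10 acinar markers against -2.23 to 1.01 on the other arrays. All 11 red pulp macrophage, 13 B cell and 15 T cell markers of the table were well above background on every array. So was every probe of the table that was found in the scanner output, so this cannot test the identity of the tissue. By the slide numbers in the file headers, vehicle 1 and vehicle 2 shared slide 1, and vehicle 3 shared slide 2 with all 3 MOTS-c arrays. A difference within slide 2 thus sets 3 MOTS-c arrays against vehicle 3 alone. It is given below beside the genes whose array values are printed, where it differs by over 1.5 times.

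The 3 promoters that follow belong to the 2 genes with the lowest differences and the 1 with the highest, Eif2ak1, Eif3j1 and Eif4a2. Each is the 250 bases before the annotated start in RefSeq on GRCm38.p6, 5′ to 3′ on the plus strand, at chr5:143817542-143817791, chr2:122028330-122028579 and chr16:23107218-23107467. Capitals mark matches to 3 motifs searched on both strands, which share no letters with each other in these windows. The motif for GATA factors was AGATAA, or the same letters with a different first base, TGATAA. The motif bound by KLF1 and its relatives, known as the CACCC box, was CCNCACCC. The motif for E2F factors was TTTCCCGC.
Eif2ak1: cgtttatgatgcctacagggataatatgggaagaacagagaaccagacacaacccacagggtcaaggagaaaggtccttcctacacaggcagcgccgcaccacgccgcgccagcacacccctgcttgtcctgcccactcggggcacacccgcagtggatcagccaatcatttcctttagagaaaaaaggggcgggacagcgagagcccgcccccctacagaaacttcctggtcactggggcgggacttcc
Eif3j1: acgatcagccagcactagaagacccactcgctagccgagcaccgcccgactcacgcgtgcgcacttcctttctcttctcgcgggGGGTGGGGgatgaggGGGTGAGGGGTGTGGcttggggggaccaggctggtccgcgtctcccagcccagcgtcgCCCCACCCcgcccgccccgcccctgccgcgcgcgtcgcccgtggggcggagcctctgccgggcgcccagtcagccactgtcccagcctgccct
Eif4a2: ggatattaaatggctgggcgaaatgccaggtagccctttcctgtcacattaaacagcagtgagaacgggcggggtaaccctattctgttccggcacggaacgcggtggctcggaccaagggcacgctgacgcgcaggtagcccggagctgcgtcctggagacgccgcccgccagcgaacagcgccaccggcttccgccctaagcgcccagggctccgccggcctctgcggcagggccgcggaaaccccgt
The Eif3j1 window held 4 matches to the CACCC box, and neighbouring ones can share a base, while the Eif2ak1 and Eif4a2 windows held 0 matches to any of the 3 motifs. RefSeq windows, 54 in all, were found for 41 of the 51 genes, and matches are counted by window. The CACCC box was in 5 of the 54 windows (of Eif1, Eif2ak4, Eif2b5, Eif3j1 and Eif4a1) and in 14.9% of all 32851 windows. The GATA motif was in 1 of the 54 (of Eif3c) against 16.6% of all windows, and the E2F motif in 0 against 0.895%. The reference strain's letters are shown, and a match is not evidence that a factor binds.

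Over the whole module, means were more often lower with MOTS-c. Of the 51 genes, 37 (72.5%) had a lower mean, against 43.6% of all named genes, and the median difference was -0.15 against 0.062 for all named genes. The MOTS-c values lay wholly below the vehicle values for 17 genes (background 16.3% of genes) and wholly above them for 7 (background 19.4%). At an unadjusted p under 0.05, 10 genes were lower (background 13.0%) and 5 higher (background 13.3%). At an adjusted p under 0.1, 2 genes were lower, Eif2ak1 and Eif3j1 (background 5.28%), and 0 higher (background 1.22%). Within slide 2, 27 of 51 genes were lower, against 42.1% of all genes, and the median was -0.015, against 0.063 for all genes. The share was larger when the processed signals were scaled to each array's 75th percentile, with 42 genes lower (background 47.9%) and a median of -0.33.

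**Figure D1:**
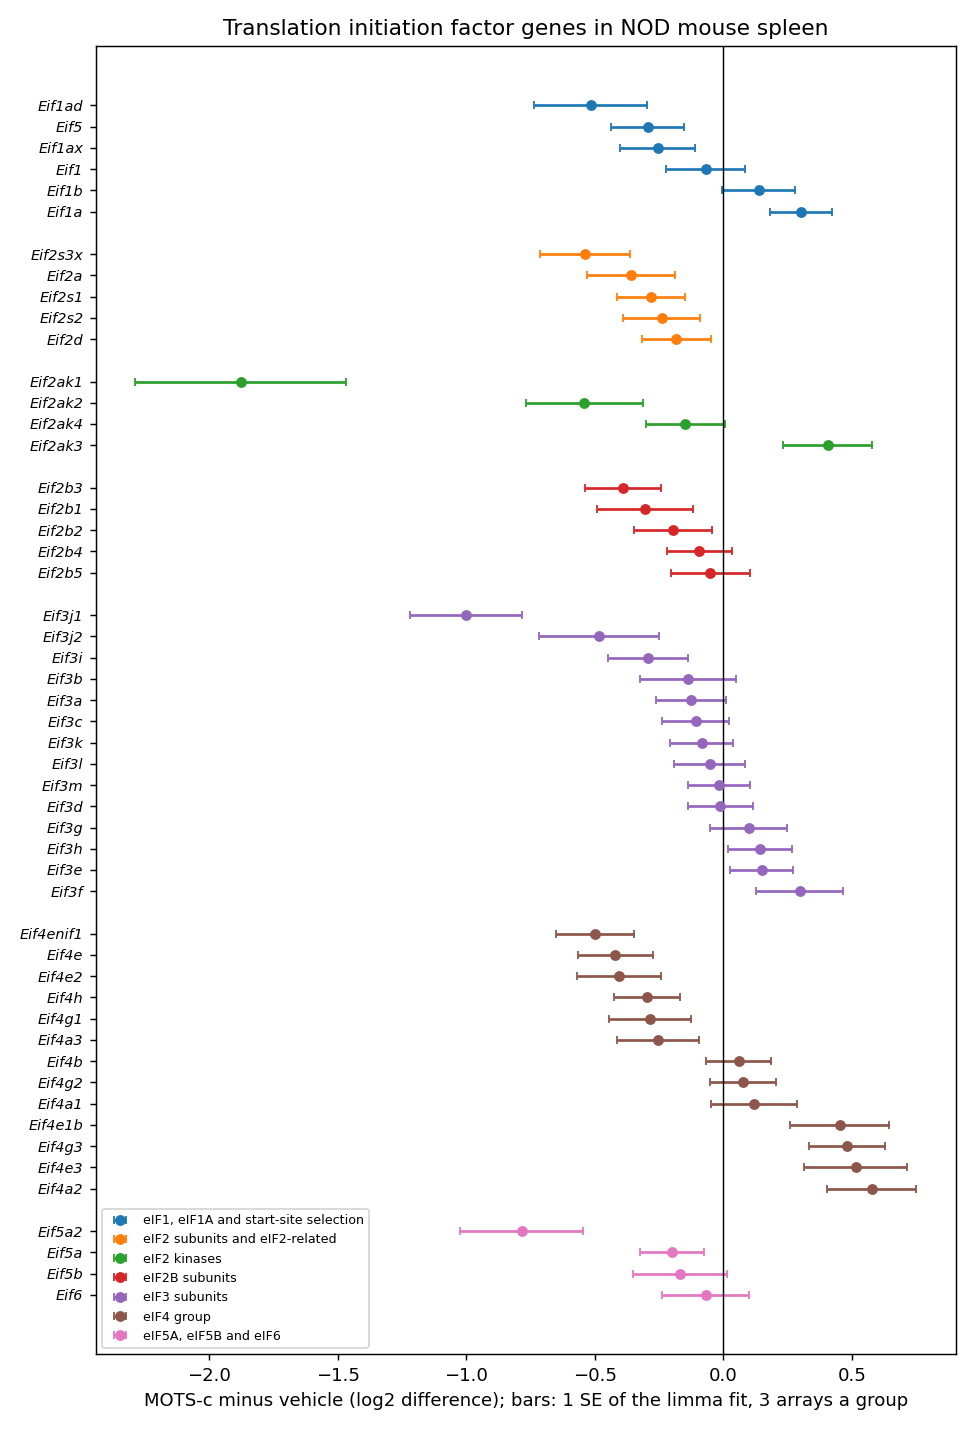
Difference between MOTS-c and vehicle (log2, x axis) for the 51 initiation factor genes in 7 groups; points are the difference of 2 means of 3 arrays and bars 1 standard error of limma's fit. Eif2ak1 at -1.88 and Eif3j1 at -1.0 lie farthest to the left, and Eif4a2 at 0.58 farthest to the right.

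The kinases of eIF2 differed most from each other. Eif2ak1 had the lowest difference of the module, Eif2ak2 and Eif2ak4 had lower means, and Eif2ak3 had a higher one. Eif2ak1 was read by a probe at chr5:144664680-144664739 of mm9, plus strand, at 12.82, 11.78 and 11.11 on vehicle 1 to 3 and at 10.37, 9.80 and 9.91 on MOTS-c 1 to 3. All 3 MOTS-c arrays were below all 3 vehicle arrays, and vehicle 1 was the highest. The mean was 11.90 ± 0.861 (SD, n = 3) for vehicle and 10.03 ± 0.298 (SD, n = 3) for MOTS-c, a difference of -1.88 ± 0.41 (SE), or 3.67-fold lower, with an adjusted p of 0.0828. The other 3 probes of the gene gave -0.86, -0.99 and -1.12, and their groups did not overlap either. The size of the Eif2ak1 difference therefore depends on the probe, the brightest giving the largest, while the direction was shared by all 4. Its difference was -1.42 (adjusted p 0.110) without vehicle 1, -2.27 (adjusted p 0.0606) without vehicle 3 and -1.09 within slide 2. Without vehicle 2, 2 of its dimmer probes passed the threshold, at -1.13 (adjusted p 0.0492) and -1.37 (adjusted p 0.0495), where 772 of all 31692 probes (2.44%) did, a share like that of these 2 among the 90. No other initiation factor probe passed it under any of the 16 alternatives tried.

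Markers of red cell precursors shared the direction of Eif2ak1. Among the vehicle arrays, its brightest probe was lowest on vehicle 3, while its dimmer probes and the mean of the markers were lowest on vehicle 2. All 18 measured markers, among them the band 3 gene Slc4a1, the haem synthesis gene Alas2 and the erythropoietin receptor Epor, had lower means with MOTS-c. The groups did not overlap for 17 of them (background 16.3% of genes), and the median difference of the 18 was -1.09. Their mean deviation ranged from 0.18 to 0.83 on the vehicle arrays and from -0.63 to -0.44 on the MOTS-c arrays. Within slide 2 their median was -1.16. All 22 markers of dividing cells were also lower without overlap (background 16.3% of genes), with a median of -0.99 and ranges of 0.24 to 0.78 against -0.64 to -0.21. T and B cell markers went the other way, with higher means for 15 of 15 and 13 of 13 and medians of 1.05 and 0.85, ranging from -1.46 to -0.0096 and from -1.36 to 0.22 on vehicle and from 0.49 to 0.57 and from 0.31 to 0.51 on MOTS-c. Cytotoxic and NK cell markers had higher means for 10 of 10 with a median of 0.85. Neutrophil markers had higher means for 14 of 14 with a median of 1.1 but 0 without overlap (background 19.4% of genes), vehicle 2 at -1.38 and MOTS-c 3 at -0.70 being low. Medians were 0.073 over 11 red pulp macrophage markers and 0.19 over 7 plasma cell markers. All 10 acinar markers had lower means, with a median of -2.93. The part of these cell types in the Eif2ak1 difference, or in that of any other initiation factor, was not tested, and in whole spleen fewer cells of a type and less RNA per cell cannot be told apart.

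Eif2ak2, the kinase that senses double-stranded RNA, was at 10.48, 10.89 and 10.22 on vehicle 1 to 3 and at 10.27, 10.01 and 9.68 on MOTS-c 1 to 3. The groups overlapped, since MOTS-c 1 was above vehicle 3. The difference was -0.54 ± 0.23 (SE, n = 3 per group; adjusted p 0.191), and -0.23 within slide 2. Eif2ak2 is itself an interferon-induced gene, and 21 other interferon-induced genes had a median difference of 0.43, of which 16 had higher means and 5 lower. At an unadjusted p under 0.05, 5 of the 21 were higher (background 13.3% of genes) and 1 lower (background 13.0%). The 3 with the smallest p were the oligoadenylate synthetase family genes Oasl2 at 1.27 ± 0.27 and Oas2 at 1.58 ± 0.43, and the antiviral gene Rsad2 at -1.09 ± 0.29 (all SE, n = 3 per group). Eif2ak2 thus lay on the opposite side of 0 from the median of that list. The list's mean deviation was -0.76, 0.39 and -0.26 on vehicle 1 to 3 and 0.29, 0.42 and -0.083 on MOTS-c 1 to 3, with overlap.

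Eif2ak3, the kinase of the endoplasmic reticulum, was at 10.09, 10.39 and 10.41 on the vehicle arrays and at 10.46, 10.74 and 10.91 on the MOTS-c arrays. The groups did not overlap, but MOTS-c 1 lay only just above vehicle 3, by less than the SD within either group. Its difference was 0.41 ± 0.17 (SE, n = 3 per group; adjusted p 0.193). A dimmer probe of the same symbol gave -0.51, and the mean of both probes gave -0.050, so the direction for Eif2ak3 depends on the probe. Eif2ak4, the kinase that senses uncharged tRNA, was at 11.12, 10.98 and 10.71 on vehicle and at 10.89, 10.71 and 10.77 on MOTS-c, with overlapping groups and a difference of -0.15 ± 0.15 (SE, n = 3 per group). Within slide 2 its difference was 0.079. Its 2 dimmer probes gave 0.026 and -0.48.

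All 5 genes of the group of eIF2 subunits and eIF2-related factors had lower means, 4 of them without overlap, with a median of -0.28. Of all genes, 43.6% had a lower mean and 16.3% were lower without overlap. Eif2s1, the alpha subunit that the kinases phosphorylate, was at 12.90, 12.77 and 12.77 on vehicle and at 12.55, 12.64 and 12.40 on MOTS-c. Every MOTS-c array was below every vehicle array, and the difference was -0.28 ± 0.13 (SE, n = 3 per group; adjusted p 0.225). Eif2s2, the beta subunit, was at 14.05, 14.25 and 14.39 against 13.95, 14.14 and 13.88, with overlap and a difference of -0.24 ± 0.15 that was -0.40 within slide 2. Eif2s3x, the X-linked gamma subunit that binds the initiator tRNA, was at 9.77, 9.58 and 9.34 on vehicle and at 9.15, 8.79 and 9.14 on MOTS-c, without overlap, and differed by -0.54 ± 0.17 (SE, n = 3 per group; adjusted p 0.131), or by -0.31 within slide 2. Its second probe gave -0.41. The 2 related factors, Eif2a and Eif2d, which can deliver tRNA without eIF2, differed by -0.36 and -0.18. All 5 genes were also lower within slide 2, with a median of -0.24, and the median ranged from -0.34 to -0.22 when 1 array at a time was left out.

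**Figure D2:**
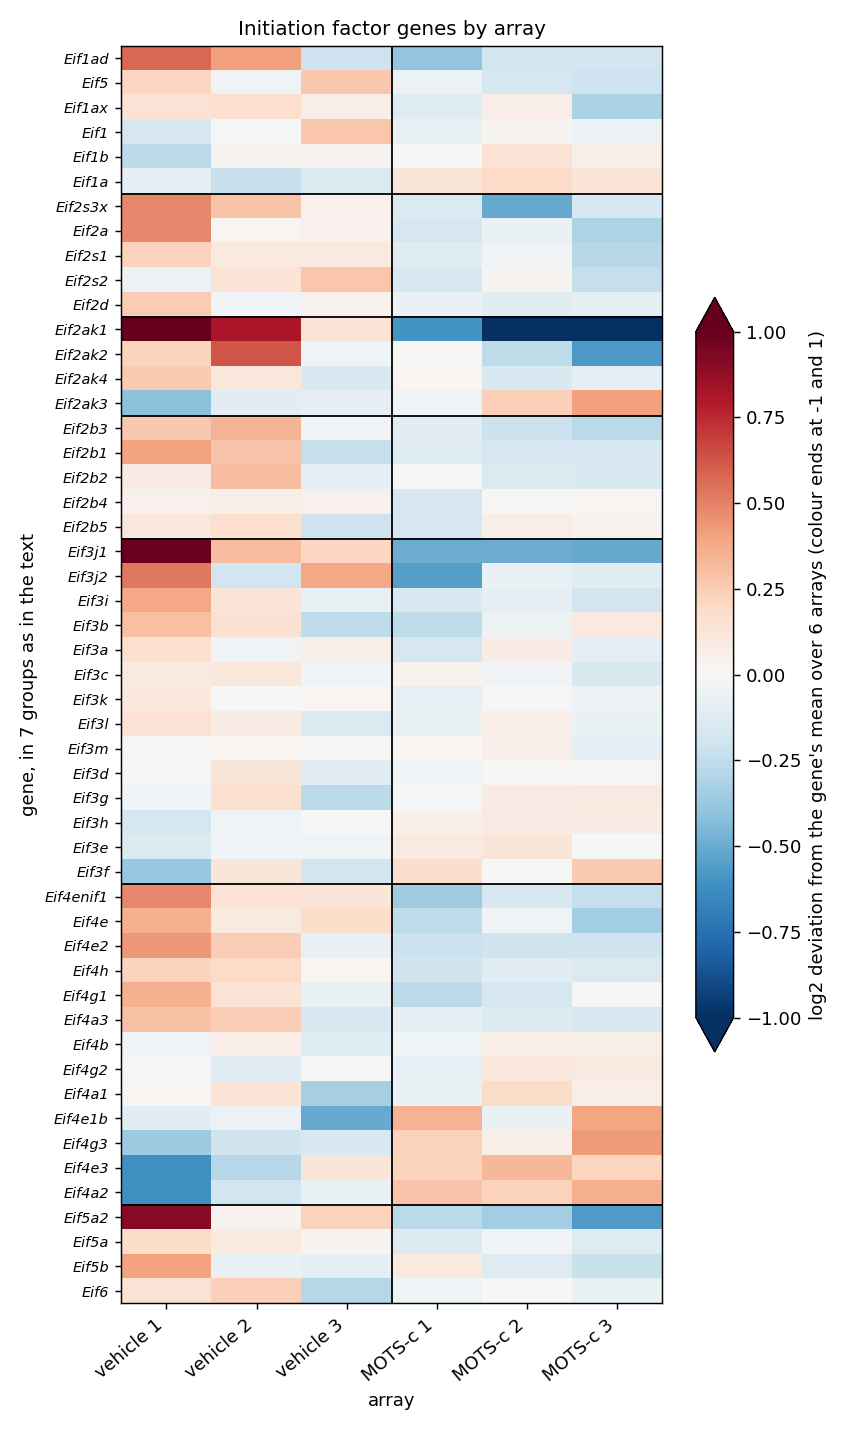
Deviation of each of the 51 genes (rows, in the 7 groups of the text) from its own mean over the 6 arrays (columns), in log2 units, with colours ending at -1 and 1. Eif2ak1 and Eif3j1 have the darkest rows, vehicle 1 holds many of the highest values, and most eIF3 rows are pale.

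The 5 subunits of eIF2B, the exchange factor for eIF2, had lower means throughout, but the differences were small, with a median of -0.20. Eif2b3, which codes for the gamma subunit, was at 10.25, 10.32 and 9.95 on vehicle and at 9.87, 9.76 and 9.71 on MOTS-c, without overlap. Its difference was -0.39 ± 0.15 (SE, n = 3 per group; adjusted p 0.163), and its other probes gave -0.54 and -0.64, all on the same side. Within slide 2 it was -0.17. Eif2b1, the alpha subunit, was at 11.24, 11.12 and 10.60 against 10.71, 10.66 and 10.68. Vehicle 3 was below all 3 MOTS-c arrays and the other vehicle arrays were above them, and the difference of the means was -0.31 ± 0.19, or -0.18 without vehicle 1 and -0.50 without vehicle 3. Eif2b2, the beta subunit, was at 13.36, 13.58 and 13.17 against 13.27, 13.13 and 13.12, with overlap and a difference of -0.20 ± 0.15. The catalytic subunit gene Eif2b5 and the delta subunit gene Eif2b4 differed by -0.050 and -0.094. Within slide 2 the eIF2B median was 0.0021 and only 2 of the 5, Eif2b3 and Eif2b4, were lower, with Eif2b1 at 0.078 and Eif2b2 at 0.0021.

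Regulators around eIF2 were taken from a separate list of 21 measured genes that regulate eIF2 phosphorylation or are induced after it. At an unadjusted p under 0.05, 4 were lower (background 13.0% of genes) and 1 higher (background 13.3%), and the median difference was 0.013. The 3 with the smallest p all had lower means. Ppp1r15a (GADD34), which brings a phosphatase to eIF2, was at 16.04, 15.53 and 15.51 on vehicle and at 14.88, 14.87 and 14.77 on MOTS-c, without overlap, and differed by -0.85 ± 0.18 (SE, n = 3 per group; adjusted p 0.0820). Chac1, a glutathione-degrading enzyme, differed by -1.74 ± 0.43 (adjusted p 0.0940), and Asns, asparagine synthetase, by -1.01 ± 0.29 (adjusted p 0.112). Chac1 and Asns were highest on vehicle 3, at 10.53 and 15.17, and differed by -1.38 and -0.81 without that array. The transcription factor Atf4, whose translation rises when eIF2 is phosphorylated, had a transcript difference of -0.25 ± 0.15. The list's median within slide 2 was -0.24, with 14 of 21 genes lower.

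Transcripts of the eIF3 scaffold were abundant and differed little, apart from the loosely bound j subunit. Of the 14 genes 10 had lower means, with a median of -0.068, and the 12 other than Eif3j1 and Eif3j2 had a median of -0.035. Eif3j1 was at 12.64, 11.96 and 11.86 on vehicle 1 to 3 and at 11.15, 11.16 and 11.15 on MOTS-c 1 to 3, by a probe at chr2:121879180-121879239 of mm9, plus strand. The groups did not overlap, and the 3 MOTS-c arrays were nearly equal (SD 0.0054) while the vehicle arrays spread more (SD 0.424). The difference was -1.0 ± 0.22 (SE, n = 3 per group), or 2.00-fold lower, with an adjusted p of 0.0828. A second, dimmer probe gave -0.72, also without overlap. Without vehicle 1 the difference was -0.76 (adjusted p 0.109), without vehicle 3 it was -1.15 (adjusted p 0.0659), and within slide 2 it was -0.71.

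Eif3j2, a near-identical copy of Eif3j1 beside it on chromosome 2, was at 12.11, 11.39 and 11.97 on vehicle and at 11.03, 11.52 and 11.47 on MOTS-c. The groups overlapped through vehicle 2, and the difference was -0.48 ± 0.23 (SE, n = 3 per group; adjusted p 0.233). Probes of the 2 copies may bind transcripts of both, so their levels are uncertain as separate genes. Eif3f, next in size among the eIF3 genes, was at 14.56, 15.06 and 14.75 on vehicle and at 15.12, 14.95 and 15.21 on MOTS-c, with overlap, and differed by 0.30 ± 0.17, or by 0.043 under 75th percentile scaling. The other 11 eIF3 genes, which include the scaffold subunits Eif3a, Eif3b and Eif3c, had differences between -0.29 (Eif3i) and 0.15 (Eif3e). The signs of Eif3e, Eif3g and Eif3h, higher here at 0.15, 0.10 and 0.14, turned under 75th percentile scaling to -0.10, -0.14 and -0.10, under which 13 of the 14 were lower and the median was -0.32. That scaling moved the 31 initiation factor genes brighter than the upper quartile of all genes by a median of -0.23, and all 4090 genes that bright by -0.17, so the small eIF3 differences have no settled sign.

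The eIF4 group split in both directions, with 6 of 13 genes lower, 7 higher and a median of 0.059. That median depends on the dim genes Eif4e3 and Eif4e1b, both higher. Among probes above the median level, which leaves them out, it was -0.26. Among the lower ones was Eif4e, the cap-binding protein itself, at 11.48, 11.21 and 11.31 on vehicle and at 10.87, 11.08 and 10.78 on MOTS-c, without overlap, a difference of -0.42 ± 0.15 (SE, n = 3 per group; adjusted p 0.146). Its second probe was dim and gave -0.028. Eif4enif1, the eIF4E transporter that also represses bound mRNAs, was at 11.70, 11.36 and 11.34 against 10.87, 11.06 and 10.99, without overlap. It differed by -0.50 ± 0.15 (SE, n = 3 per group; adjusted p 0.122), and its other probe gave -1.32, the largest gap between probes of 1 gene on the same side of 0 after Eif2ak1. Eif4e2, a cap-binding relative that represses translation, gave -0.41 on its brightest probe, labelled transcript variant 2, and 0.34 on the next, labelled transcript variant 3. Both were without overlap, so no direction can be given for the gene as a whole.

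On the higher side, Eif4a2, one of the paired cytoplasmic eIF4A helicases, had the largest positive difference of the module on the normalized values, though not under 75th percentile scaling, where Eif4e3 was first at 0.55, or within slide 2, where Eif4e1b was first at 0.73. It was at 13.67, 14.09 and 14.22 on vehicle 1 to 3 and at 14.57, 14.51 and 14.64 on MOTS-c 1 to 3, by a probe at chr16:23113939-23113998 of mm9, plus strand. All MOTS-c arrays were above all vehicle arrays, vehicle 1 being the lowest. The difference was 0.58 ± 0.17 (SE, n = 3 per group), or 1.49-fold higher, with an adjusted p of 0.118. A second probe gave 0.53 (adjusted p 0.0939), the only initiation factor probe higher at an adjusted p under 0.1 (background 1.33% of probes), and another, dimmer one gave -0.40 with overlapping groups. The difference for Eif4a2 was 0.34 under 75th percentile scaling and 0.35 within slide 2. Its sister helicase Eif4a1 differed by 0.12 ± 0.17, and by -0.13 under that scaling, so the Eif4a2 value kept its sign and the Eif4a1 value did not.

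Eif4g3, a scaffold that joins the cap-binding protein to the helicase, was at 11.73, 11.89 and 11.93 on vehicle and at 12.32, 12.16 and 12.52 on MOTS-c. Its groups did not overlap, its difference was 0.48 ± 0.15 (SE, n = 3 per group; adjusted p 0.123), and its other probes gave 0.45 and 0.31. Within slide 2 it was 0.40. The main scaffold gene Eif4g1 differed by -0.28 ± 0.16 with overlapping groups, and the related Eif4g2, which lacks the cap-binding contact, by 0.077. Eif4e3, another cap-binding relative, was at 6.54, 6.87 and 7.27 against 7.37, 7.49 and 7.36, without overlap, a difference of 0.51 ± 0.20 (SE, n = 3 per group; adjusted p 0.168) that was 0.14 within slide 2. Eif4e1b, a germline relative with the lowest level of the module, was at 5.14, 5.19 and 4.74 against 5.60, 5.18 and 5.64, with overlap and a difference of 0.45 ± 0.19, or 0.73 within slide 2. Its other probes, outside the deposited table, were well above background on 0 arrays. The remaining eIF4 genes were Eif4h at -0.30, Eif4a3 at -0.26 and Eif4b at 0.059, of which Eif4b was -0.17 under 75th percentile scaling.

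**Figure D3:**
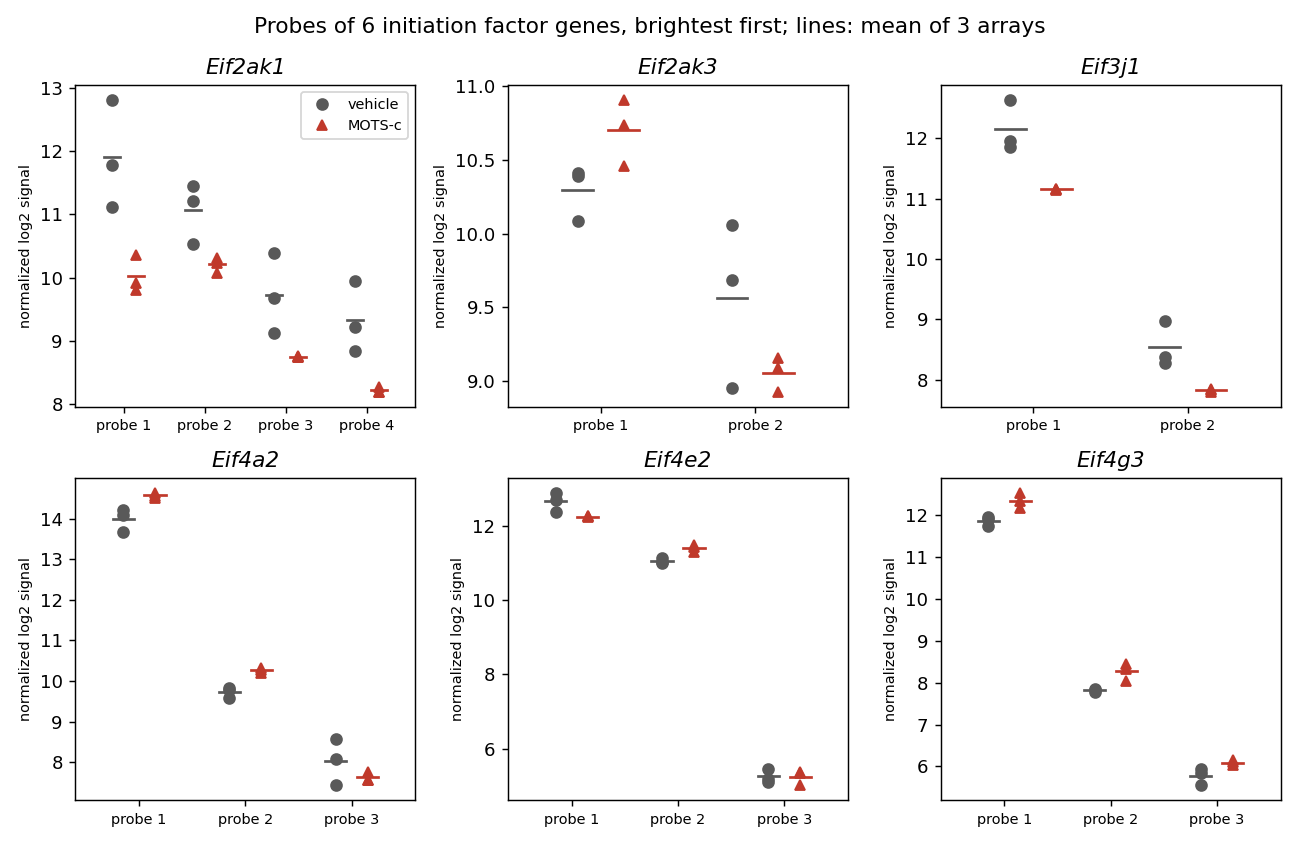
Normalized log2 signal (y axis) of every probe of 6 genes on each of the 6 arrays, with vehicle as circles, MOTS-c as triangles and short lines for the mean of 3 arrays. The 4 probes of Eif2ak1 and the 2 of Eif3j1 run the same way, the 3 of Eif4g3 run the other way, and Eif2ak3, Eif4a2 and Eif4e2 have probes on both sides.

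Regulators of eIF4E and poly(A)-binding proteins, 15 genes in a list of their own, had a median difference of 0.069. An unadjusted p below 0.05 was reached by 5, of which 3 were lower (background 13.0% of genes) and 2 higher (background 13.3%). Eif4ebp1, the repressor that mTORC1 releases from eIF4E, was at 12.94, 12.49 and 12.55 on vehicle and at 11.77, 12.04 and 11.74 on MOTS-c. These values did not overlap, and they differed by -0.81 ± 0.17 (SE, n = 3 per group; adjusted p 0.0828). Pabpc4, a poly(A)-binding protein, differed by -0.89 ± 0.21 (adjusted p 0.0903), and Pdcd4, an inhibitor of eIF4A, by 0.51 ± 0.16 (adjusted p 0.126), or by 0.27 under 75th percentile scaling. Of 13 genes of mTORC1 and its inputs, 0 had an unadjusted p under 0.05 by limma, lower (background 13.0% of genes) or higher (background 13.3%). An adjusted p under 0.05 was reached by 0. The same held for 14 genes of elongation and termination, whose median was -0.027. Without overlap, 5 of these 14 were lower (background 16.3% of genes) and 1 higher (background 19.4%), and 0 and 2 of the 13. The mTORC1 median was 0.047, and its smallest p values belonged to the S6 kinase gene Rps6kb2 (-0.33), to Rheb, the GTPase that activates mTORC1 (0.18), and to Rps6kb1 (0.14), of which the last 2 were -0.064 and -0.095 under 75th percentile scaling. Those of elongation belonged to Eef2k, the kinase of elongation factor 2 (-0.39), to the mitochondrial elongation factor gene Gfm1 (-0.34) and to Eef1e1 (-0.29). Within slide 2, Rps6kb2 was -0.023, Gfm1 -0.088 and Eef2k -0.67.

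Factors that act at start-site selection and after subunit joining were mostly lower in mean. Of the 6 genes around eIF1, eIF1A and eIF5, 4 were lower, with a median of -0.16. Eif1ad, a protein with an eIF1A-like domain, was at 13.57, 13.40 and 12.79 on vehicle and at 12.60, 12.81 and 12.80 on MOTS-c. MOTS-c 2 and MOTS-c 3 were level with vehicle 3, and the difference of -0.52 ± 0.22 (SE, n = 3 per group; adjusted p 0.193) was -0.052 within slide 2. Eif5, the GTPase activator for eIF2, and Eif1ax differed by -0.29 and -0.25, both without overlap. Eif1 and Eif1b, the start-codon fidelity factor and its relative, differed by -0.068 and 0.14 with overlap. Eif1a was at 10.96, 10.82 and 10.91 against 11.17, 11.24 and 11.19, without overlap, and its difference was 0.30 ± 0.12 (SE, n = 3 per group; adjusted p 0.178).

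All 4 genes of eIF5A, eIF5B and eIF6 had lower means, with a median of -0.18, but within slide 2 only Eif5a and Eif5a2 did, the median there being -0.062. Eif5a2, the less common of the genes for eIF5A, a factor that carries the modified lysine hypusine, was at 9.74, 8.87 and 9.06 on vehicle and at 8.57, 8.49 and 8.27 on MOTS-c. Its groups did not overlap, vehicle 1 was the highest, and the difference was -0.78 ± 0.24 (SE, n = 3 per group; adjusted p 0.122), or -0.52 without vehicle 1 and -0.62 within slide 2. Eif5a, the brightest gene of the module, was at 16.64, 16.55 and 16.48 against 16.32, 16.42 and 16.33, without overlap, and differed by -0.20 ± 0.12, or -0.12 within slide 2, its second probe giving -0.42. Dohh, the enzyme that completes hypusine, differed by -0.83 ± 0.28 (adjusted p 0.139), by -0.50 without vehicle 1 and by -0.32 within slide 2, while Mcts1 and Mcts2, which recycle or reinitiate on the small subunit, differed by 0.39 (0.19 under 75th percentile scaling) and 0.34. These 3 had the smallest p in a list of 11 further initiation genes with a median of 0.029. Eif5b, the subunit-joining GTPase, and Eif6, which keeps the large subunit apart, differed by -0.17 and -0.069 with overlap, and a dim probe of Eif6 gave -0.73.

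**Figure D4:**
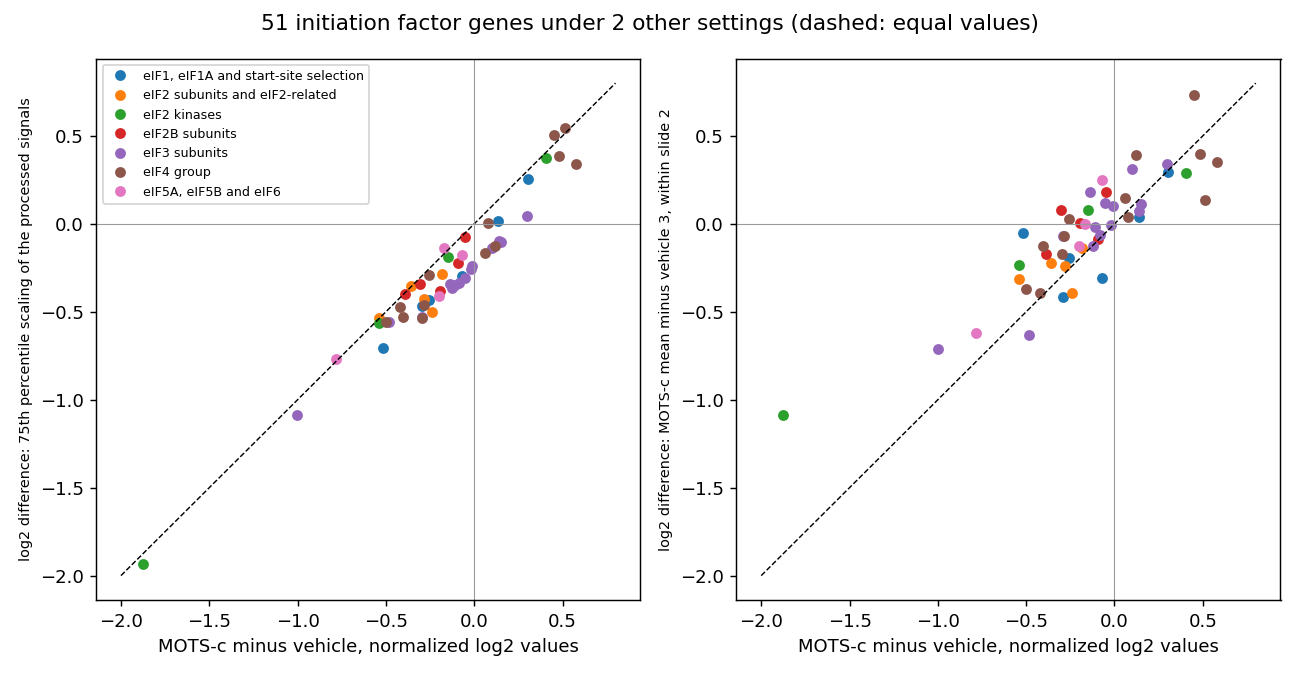
Differences of the 51 genes on the normalized values (x axis, log2) against those under 75th percentile scaling (left) and within slide 2 against vehicle 3 alone (right), coloured by group, with a dashed line for equal values. On the left most points lie below the line, with a median of -0.33, and on the right the points centre on a median of -0.015.

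Among the 51 genes, 26 were read by more than 1 probe, and in 6 of those (Eif2ak3, Eif2ak4, Eif2b4, Eif4a2, Eif4e2 and Eif4g2) the probes lay on both sides of 0. The other 25 genes had 1 probe, which allows no such check. In the authors' deposited table, 15 of the 90 probes had a p-value under 0.05, 6 higher and 9 lower with MOTS-c. Of all 31692 probes 4261 (13.4%) did, and 0 of the 90 had an adjusted one. The fold of the brightest probe was -3.67 for Eif2ak1 and -2.0 for Eif3j1. No probe of either gene was among the 15. Their p-values deposited there were 0.0510 to 0.115 for Eif2ak1, and 0.0549 and 0.0785 for Eif3j1. A further 6 probes of initiation factor genes are on the arrays outside that table. They belong to Eif4e1b and to Eif2s3y, a gene with no probe in it, and were well above background on 0 arrays.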

How the data were processed

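Per the file headers, intensities were extracted from the 6 arrays with Agilent Feature Extraction 11.0.1.1, which subtracts background within an array. The authors' deposited table gives log2 values that are quantile normalized between arrays, a score that is the signed fold between the groups, and a p-value with its adjustment. How its 31692 probes were chosen is not given in the sources used here, but those found in the scanner output (all but 6) were well above background on all arrays. Each array had 62976 spots, 59305 of them not controls, 61.8% to 64.0% well above background and 0 saturated. Arrays give no counts, so the 3 arrays of a group set the precision.

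MOTS-c was compared with vehicle on the deposited log2 values with limma 3.58.1 in R 4.3.3 (lmFit and eBayes, two-sided, Benjamini-Hochberg over all probes, threshold 0.05), tested on simulated data. A gene was represented by its brightest probe. Values are given in every array for the eIF2 kinases and subunits, the 3 largest differences in each of eIF2B, eIF3 and eIF4, and the 5 largest in each direction. The 3 genes of smallest p in each pathway list are given by their difference, with array values for Ppp1r15a and Eif4ebp1. The array values of Eif4e, Eif5a, Eif1a and Eif1ad, and the difference of Atf4, were added after they were seen. Members, lists and tests were chosen with earlier results of these data known. Of 16 alternatives, that with normexp background correction (offset 50) used the median signal, since the mean signal was not in the columns used. Replicate numbers come from the titles, and the descriptions of vehicle 3 and MOTS-c 3 give another number. Same-numbered arrays did not deviate together (correlations -0.18, -0.0024 and -0.087 over probes), and the main fit used no pairing. With 3 arrays a group and uncertain numbers, these correlations cannot exclude a pairing. Probe positions are on mm9, per the file headers, without placement in exons or untranslated regions.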

Additional observations from a re-analysis of the deposited data

How the results depend on the processing

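At 0 probes called in the table and among the initiation factors, leaving out 1 array at a time gave 0 to 772 called in the table, 772 without vehicle 2 and 39 without vehicle 3, and 0 to 2 initiation factor probes. Genes at an unadjusted p under 0.05 then numbered 5 to 15 lower (5 without vehicle 1 or any 1 MOTS-c array, 15 without vehicle 3) and 1 to 4 higher, against 8.59% to 14.8% and 6.23% to 16.1% of all genes. Genes without overlap numbered 18 to 29 lower (29 without vehicle 3) and 7 to 10 higher, against 17.3% to 24.2% and 21.4% to 29.5%. Medians ranged from -0.23 to -0.097 over all 51 genes, and from -0.21 to -0.090 for the eIF1, -0.48 to -0.24 for the kinase, -0.34 to -0.22 for the eIF2, -0.29 to -0.090 for the eIF2B, -0.11 to -0.019 for the eIF3, -0.016 to 0.094 for the eIF4 and -0.25 to -0.087 for the eIF5A, eIF5B and eIF6 group.

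Under 75th percentile scaling, an unadjusted p below 0.05 was reached by 19 genes on the lower side and 3 on the higher (background 14.7% and 10.6%), 26 lower without overlap (background 19.4%), and medians were -0.33 over all, -0.36 for eIF1, -0.43 for eIF2, -0.34 for eIF2B, -0.32 for eIF3 and -0.17 for eIF4. The member values were the same with scanner probes well above background in at least 1 group, where 2 of 33734 probes were called and the shares at that p were 14.3% and 9.85%. With normexp 3 genes were higher (background 14.9%). Among probes above the median level the eIF4 median was -0.26. With slide as a block, 1 probe of the table was called, and genes with an unadjusted p below 0.05 numbered 2 lower and 1 higher (background 7.69% and 1.97%). Within slide 2, 5 were lower and 1 higher (background 11.2% and 7.87%), and 18 higher without overlap (background 39.0%). Both gave medians of -0.015 over all, -0.076 for kinases, 0.0021 for eIF2B and 0.032 for eIF3, and turned 10 genes from lower to higher, Eif2ak4 (0.079), Eif2b1 (0.078), Eif2b2 (0.0021), Eif2b5, Eif3b, Eif3d, Eif3l, Eif4a3, Eif5b and Eif6. With the replicate block, 6 genes were lower and 2 higher (background 10.9% and 10.2%). Averaging the probes of a gene gave an eIF5A, eIF5B and eIF6 median of -0.31 and turned Eif2ak3 to -0.050. An intensity trend called 721 probes of the table. Except where named, the causes were not tested.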
